A study of Mus musculus with 16 samples.

Results

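Livers of 12 high-fat-fed mice, out of 16 mice in the study, were set against the livers of the other 4 mice, which ate ordinary feed. The 12 were taken by their diet label alone, whatever drug they received. They comprise 4 mice on high-fat feed alone, 4 that were also gavaged with resveratrol (100 mg/kg daily) and 4 that were also gavaged with metformin (200 mg/kg daily). Every mouse was C57BL/6J, a wild-type inbred strain, and every label gives the age as postnatal day 21, without saying whether that is when feeding began or when tissue was taken. The sample titles carry prefixes whose meaning the labels do not give, and whether they mark litters, cages or batches is not known. All 4 mice on high-fat feed alone share the prefix H7, ordinary-feed mice fall under C1 (3 mice) and C2 (1 mouse), and each drug group falls under 3 prefixes, so no prefix holds mice of both diets and the prefix and the diet cannot be told apart. The labels mention no vehicle gavage for mice given no drug, and state neither the composition of the feeds nor the time on them. The comparison asks which diet differences persist whatever drug was given. The 4 ordinary-feed livers are the only control for all 12, so a feature of those 4 mice that has nothing to do with feed cannot be told apart from the diet. Metformin is used against diabetes, and resveratrol is a polyphenol found in grapes.

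The deposited values cover long non-coding RNAs, transcripts that are not translated into a protein. In liver, such RNAs are known to start beside, run antisense to, or be cut from the introns and 3′ UTRs of the coding genes that handle fat and sugar. High-fat feeding is known to load hepatocytes with triglyceride, to feed back on cholesterol synthesis through the SREBP factors and to shift glucose production. Levels are in FPKM, reads scaled by the transcript's length and the library's total. A feature is 1 listed transcript, or all listed transcripts of 1 Ensembl gene. A gene symbol beside a feature says where the feature lies, and because strand was not used, reads of the feature and of an overlapping coding gene cannot be told apart. In whole liver, fewer cells of a type and less RNA per cell cannot be told apart either. Values of single groups are given for n = 4 mice and values of all high-fat-fed livers for n = 12.

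The libraries held 17.2 M to 31.1 M reads (M, mega), of which 15.7% to 23.6% fell on listed transcripts. The 7SL RNA (Rn7s1 and Rn7s2, near-identical copies), which forms the scaffold of the signal recognition particle, took 52.1 ± 2.74% of listed reads in high-fat-fed livers and 45.5 ± 2.81% in ordinary-feed livers (SD; two-sided exact permutation p = 0.0021978 over 1820 splits, 0.0132 after adjustment over 6 library measures). The median ratio of a library to the geometric-mean library was 0.997 ± 0.118 in high-fat-fed livers and 1.11 ± 0.0272 in ordinary-feed livers (adjusted exact permutation p = 0.0231). The fourth library on high-fat feed alone stood apart, with a median ratio of 0.691, 4274 features at 1 FPKM or more and 22.6% of listed reads on the ribosomal RNA locus. Markers of other cell types could hardly be read from these tables. 1 linked feature each was available for macrophages (Csf1r), endothelium (Ptprb) and stellate cells (Reln), 3 for hepatocytes, and none for cholangiocytes, lymphocytes, erythroid cells or adipocytes. The 3 hepatocyte-linked features summed to 14.9 to 30.6 FPKM in high-fat-fed livers and 13.8 to 19.1 FPKM in ordinary-feed livers, and none of the 6 marker features was called between the diets.

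**Figure D1:**
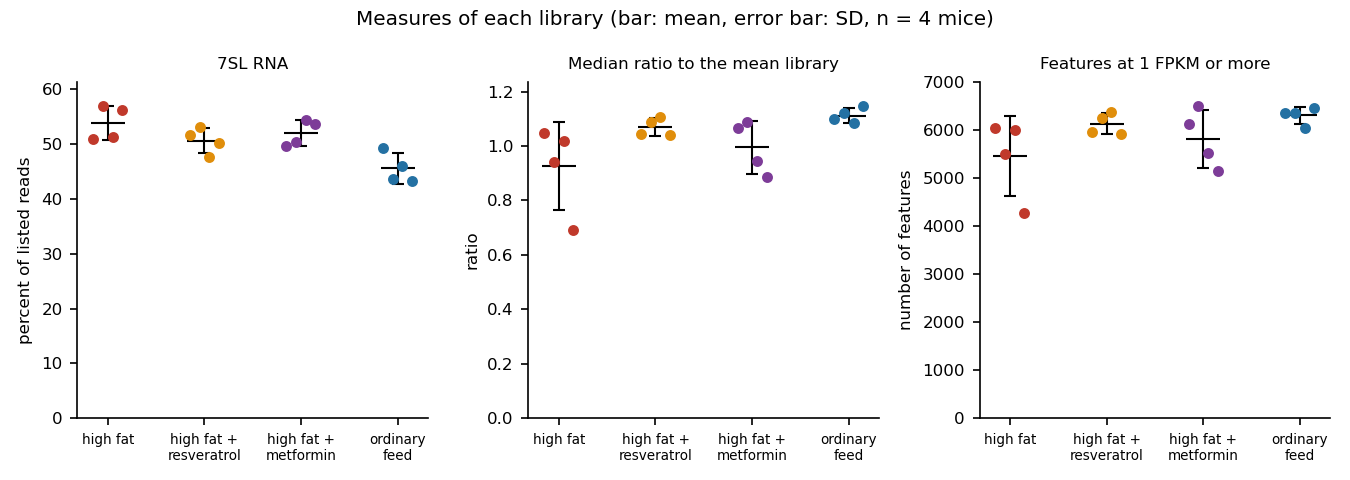
Share of listed reads on 7SL RNA (percent), median ratio to the geometric-mean library and number of features at 1 FPKM or more, for each of the 16 libraries (points) with the mean and SD of each group of 4 mice. The 7SL share lies between 47.6% and 56.8% in the 12 high-fat-fed libraries and between 43.2% and 49.3% on ordinary feed, and the fourth high-fat library has the lowest median ratio.

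Across all high-fat-fed livers, features at Stard4, Dgat2, Egfr, Ghr, Foxa2, Hnf4a and several Mup genes were higher than on ordinary feed, and features at Txnip, Pck1, Agfg1, Hdc, Gldc, St3gal5 and Insig2 were lower. Not all of these calls held with the 8 drug-treated libraries alone: those at Dgat2, Egfr, Insig2 and Foxa2 (NONMMUT147081.1) were lost. Here and below, that comparison is a contrast of the 2 drug groups with ordinary feed within the fit of all 16 libraries. The libraries on high fat alone are left out of the difference, but still enter the filter and the residual spread. The Egfr and Insig2 calls, and that of MSTRG.29540.1 at Mup12, were also lost on leaving out any 1 of the ordinary-feed libraries. Those at Dgat2, Foxa2 (NONMMUT147081.1), Ghr (NONMMUT022585.2) and Mup11 (MSTRG.29538.1) were lost without some of these libraries. Of 7413 features tested, 664 were called (limma adjusted p under 0.05), 8.96% of all tested. Higher calls numbered 166 (2.24%) and lower calls 498 (6.72%). The split depends on the scaling: after each library was divided by its median ratio, 274 features (3.7%) were called higher and 176 (2.37%) lower, so that lower calls made up 39.1% of calls in place of 75.0%. The median change of all features was -0.10 on the log2 scale as deposited and -0.0013 after that scaling, and each log2 change below is to be read against the first of these values. No feature was called in opposite directions by the 2 scalings, and 335 were called in the same direction by both, 159 of them higher and 176 lower.

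**Figure D2:**
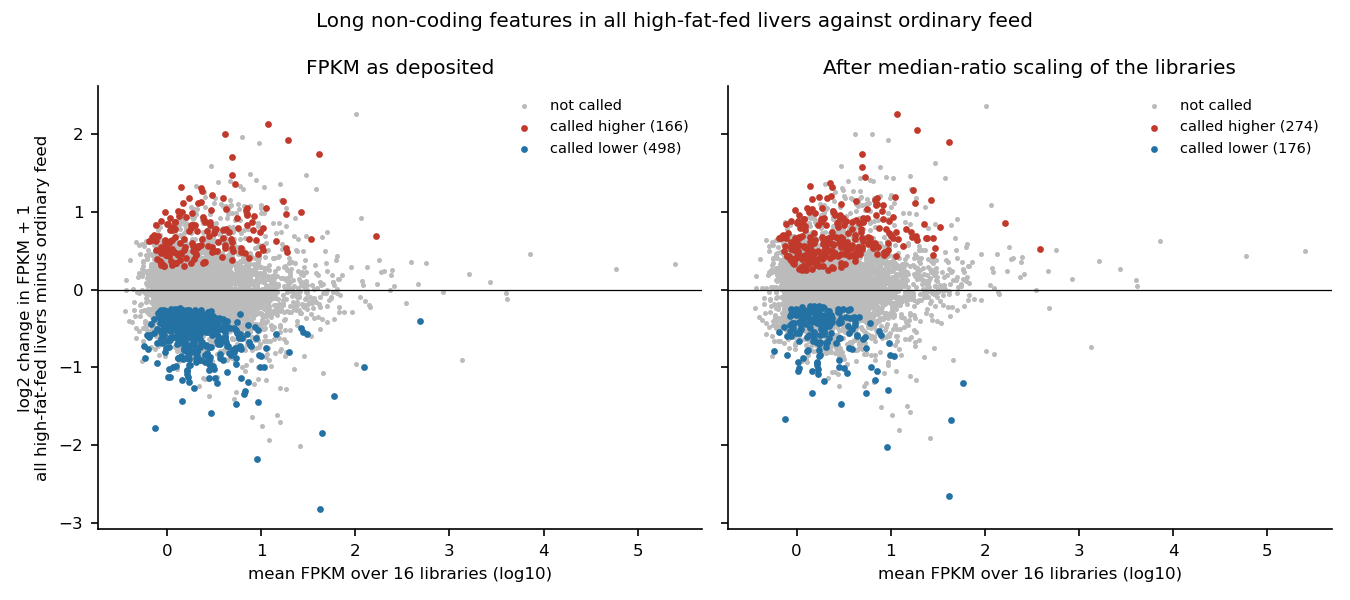
Log2 change in FPKM + 1 (all high-fat-fed livers minus ordinary feed) against mean FPKM over the 16 libraries on a log10 axis, for 7413 features, with deposited FPKM on the left and median-ratio scaled values on the right. Coloured points passed the test: 166 higher and 498 lower on the left, 274 higher and 176 lower on the right.

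The number of calls leaned on the control livers: 103 features were called without the second ordinary-feed library, 115 without the third, 292 without the first, 363 without the fourth and 388 without the fourth metformin library. Large changes were fewer. A log2 change of at least 1 was called for 25 higher and 30 lower features. In 49 features (0.661%) all 12 high-fat-fed libraries lay above all 4 ordinary-feed ones, and in 190 (2.56%) all 12 lay below. Of these 239 features, 202 were also called, 44 higher and 158 lower. After median-ratio scaling, 120 features lay wholly above and 75 wholly below. A set of 54 features, 16 higher and 38 lower, was called in the same direction in each of 24 alternative analyses of the same features, which changed the pseudocount, the filter, the scaling, the model and the libraries used. In 44 of these 54 the diets did not overlap. Only 5 features had a gap between the diets of at least 0.5 on the log2 scale. The 12 highest and 12 lowest features named by rule below were chosen among called features without overlap. For those, lack of overlap was a condition of being named and is no separate result.

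The widest gap was at Agfg1, which encodes a protein of vesicle transport. NONMMUT001706.2 (chr1:82896322-82901182, GRCm38, in the 3′ UTR of Agfg1) ran from 0.036 to 0.14 FPKM with a median of 0.0884 FPKM in the 12 high-fat-fed livers, and was at 2.42, 2.35, 2.73 and 3.52 FPKM in the 4 ordinary-feed livers. The diets were 1.55 apart at their nearest on the log2 scale, and the feature was low in every high-fat-fed mouse. Its mean on ordinary feed was 31.9 times that of high-fat-fed livers, from 203 to 345 reads a library on ordinary feed and from 4 to 17 in high-fat-fed livers. The log2 change was -1.78 (SE 0.0979, limma adjusted p = 1.18e-07), understated at this low level by the pseudocount. It was -1.80 on high fat alone, -1.77 with resveratrol and -1.77 with metformin. The difference between resveratrol and high fat alone was 0.03 (95% interval -0.23 to 0.28), and that between metformin and high fat alone was 0.03 (-0.23 to 0.28).

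A feature across Txnip was lower, and 1 in its 3′ UTR was not called. Txnip encodes a brake on glucose uptake and on thioredoxin, and its transcription is known to follow glucose through the factor ChREBP. Gm15441, a long non-coding RNA described in mouse liver as antisense to Txnip (chr3:96555765-96566801), ran from 1.51 to 8.69 FPKM with a median of 3.44 FPKM in high-fat-fed livers, and was at 30.3, 5.54, 36.2 and 24.5 FPKM in ordinary-feed livers. Only the second ordinary-feed mouse lay within the high-fat-fed range. The log2 change was -2.19 (SE 0.39, limma adjusted p = 0.0086), with group values of -2.30 on high fat alone, -1.69 with resveratrol and -2.56 with metformin. The call was kept in each alternative analysis that tested the feature. The 3′ UTR feature of Txnip (NONMMUT044301.2) had a value of -0.07 and was not called. The interval of Gm15441 includes the Txnip promoter, whose 250 bases before the start (RefSeq, GRCm38.p6, plus strand, chr3:96557707-96557956) are shown because ChREBP is known to bind paired E-boxes there. Capitals mark 2 copies of CACGNG with 5 bases between them, searched on both strands, which 0.0457% of 32851 promoters hold.
Txnip promoter: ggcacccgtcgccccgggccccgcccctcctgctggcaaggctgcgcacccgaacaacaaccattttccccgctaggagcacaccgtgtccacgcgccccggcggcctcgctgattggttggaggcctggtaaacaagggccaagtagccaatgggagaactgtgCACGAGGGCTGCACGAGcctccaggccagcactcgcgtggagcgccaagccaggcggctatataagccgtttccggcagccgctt

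Pck1 encodes phosphoenolpyruvate carboxykinase, the enzyme that commits carbon to glucose production. From Ctcfl, the gene of a relative of the insulator protein CTCF, to the stretch before Pck1, 13 features were tested, some of them overlapping Ctcfl. Of these 7 were called, all lower, against 6.72% of all features, and overlapping ones share reads. NONMMUT041549.2 (chr2:173142376-173148383), whose end lies 4.665 kb before Pck1, ran from 0.0398 to 1.48 FPKM with a median of 0.796 FPKM in high-fat-fed livers, and was at 2.31, 2.38, 2.52 and 2.25 FPKM in ordinary-feed livers. Every high-fat-fed mouse lay below every ordinary-feed mouse. The log2 change was -0.99 (SE 0.12, limma adjusted p = 0.00175). It was -1.41 on high fat alone, -0.96 with resveratrol and -0.60 with metformin, and the metformin minus high fat difference was 0.81 (95% interval 0.48 to 1.14), while the F test among the high-fat-fed groups gave an adjusted p of 0.152. The overlapping features NONMMUT041546.2 (-0.94) and NONMMUT041547.2 (-0.89), share reads with it and are no independent measurements. In the same stretch NONMMUT041543.2 had a value of 0.42 and was not called. The 250 bases before the start of Pck1 (RefSeq, GRCm38.p6, plus strand, chr2:173152823-173153072) are shown as the promoter these features lead up to. Capitals mark TTACGTCA, the form of the cyclic AMP response element known there, which begins 93 bases before the start and which 147 of 32851 promoters hold on either strand.
Pck1 promoter: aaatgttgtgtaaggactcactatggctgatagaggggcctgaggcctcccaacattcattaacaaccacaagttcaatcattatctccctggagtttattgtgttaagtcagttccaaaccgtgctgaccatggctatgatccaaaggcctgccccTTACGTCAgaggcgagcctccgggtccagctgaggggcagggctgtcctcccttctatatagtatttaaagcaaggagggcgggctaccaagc

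Features at Gldc, Hdc and St3gal5 were also lower. They were named by their size of change among called features without overlap between the diets. Gldc encodes the glycine decarboxylase of the glycine cleavage system. NONMMUT034407.2 (chr19:30164751-30165769), in an intron of Gldc, ran from 0.344 to 1.90 FPKM with a median of 1.04 FPKM in high-fat-fed livers, and was at 3.30, 2.91, 3.55 and 3.46 FPKM in ordinary-feed livers. The diets did not overlap, although the values rest on 8 to 41 reads a library in high-fat-fed livers and 58 to 76 on ordinary feed. The log2 change was -1.09 (SE 0.0959, limma adjusted p = 4e-05), with -1.48 on high fat alone, -0.76 with resveratrol and -1.02 with metformin. Hdc encodes the enzyme that makes histamine. NONMMUT146430.1 (chr2:126591782-126595454), a multi-part feature across Hdc, ran from 2.28 to 9.08 FPKM with a median of 6.64 FPKM in high-fat-fed livers, and was at 22.2, 12.7, 24.0 and 14.9 FPKM in ordinary-feed livers. Again no high-fat-fed mouse reached an ordinary-feed one, and the change was -1.44 (SE 0.20, limma adjusted p = 0.00238). Gm29438 (chr6:72104201-72106813), in an intron of St3gal5, the gene of the enzyme that makes ganglioside GM3, averaged 2.35 ± 0.716 FPKM in high-fat-fed livers and 6.69 ± 1.82 FPKM in ordinary-feed livers (SD), a log2 change of -1.20 (SE 0.15, limma adjusted p = 0.00175).

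**Figure D3:**
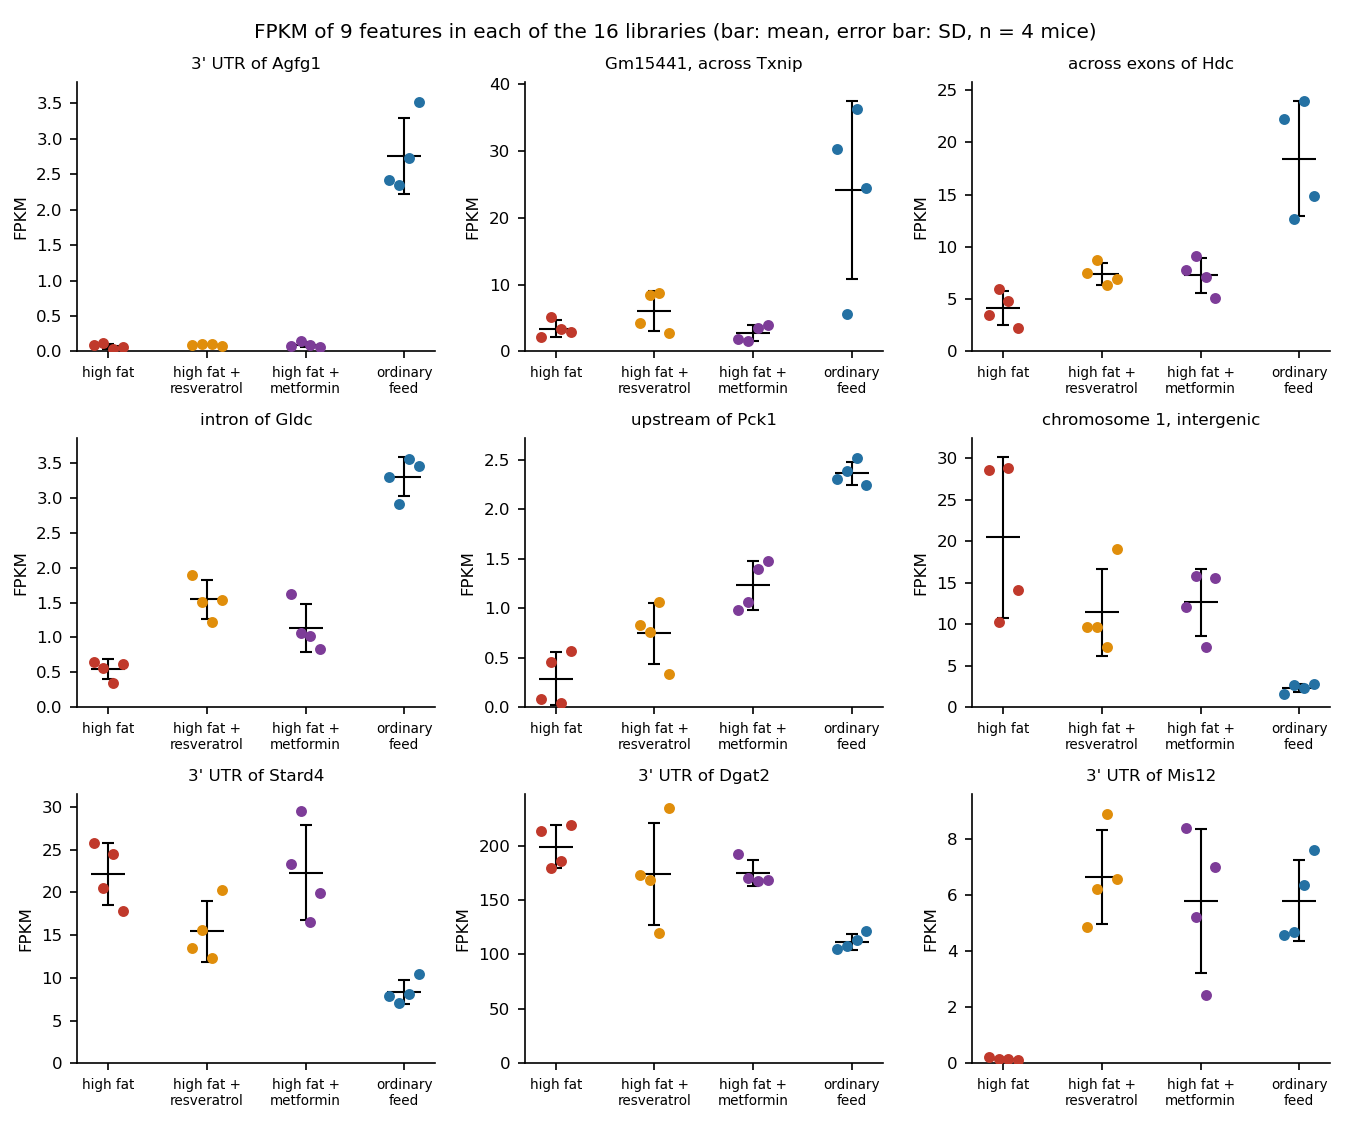
FPKM of 9 features in each library (points), by group, with the mean and SD of 4 mice. At Agfg1 all 12 high-fat-fed livers sit at no more than 0.14 FPKM (rounded), at Hdc and Gldc the 3 high-fat-fed groups lie below ordinary feed, at Stard4 and on chromosome 1 they lie above it, and at Mis12 only the livers on high-fat feed alone are low.

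Several features near immune, kinase and helicase genes were lower too. The one 5.58 kb downstream of H2-Q10 (NONMMUT029447.2, chr17:35480139-35480728), a secreted class I histocompatibility gene with close copies among which reads could be split, ran from 9.74 to 63.2 FPKM with a median of 20.9 FPKM in high-fat-fed livers, and was at 96.2, 111, 88.8 and 69.7 FPKM in ordinary-feed livers. The ranges did not touch, with a log2 change of -1.85 (SE 0.38, limma adjusted p = 0.0155). That call was lost without the second or the third ordinary-feed library (adjusted p up to 0.0591), without the filter and with the 8 drug-treated libraries alone. All 4 features upstream of Dhx40, an RNA helicase gene, had negative values, and 3 were called lower, against 6.72% of all features. These 4 overlap within 4.3 kb, so they can share reads and are no independent measurements. The most changed of them, NONMMUT011310.2 (chr11:86811828-86814524), ran from 4.53 to 103 FPKM with a median of 9.62 FPKM in high-fat-fed livers, and was at 35.9, 227, 168 and 33.6 FPKM in ordinary-feed livers. The third metformin mouse, at 103 FPKM, lay among the ordinary-feed values, and the other 11 high-fat-fed mice were at 19.1 FPKM or less. Its log2 change of -2.82 (SE 0.62, limma adjusted p = 0.0196) was not called with the 8 drug-treated libraries alone, without the filter, or without the second or the third ordinary-feed library (adjusted p up to 0.0762).

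Of the other lower features named by rule, Gm11832 (chr4:11611139-11615007), which overlaps the DNA repair gene Rad54b, changed by -1.59 (SE 0.28), NONMMUT008193.2 (chr10:128971188-128984018), 5.41 kb upstream of the olfactory receptor gene Olfr9, by -1.47 (SE 0.25), and NONMMUT101464.1 (chr17:78984682-78985503), across part of the kinase gene Prkd3, by -1.05 (SE 0.14). NONMMUT144470.1, 212.5 kb from Setd4, changed by -1.13 (SE 0.20). These 4 were called in each alternative analysis that tested them. Gm22146, in an intron of Fkbp5, a chaperone gene of the glucocorticoid receptor, changed by -1.02 (SE 0.21, limma adjusted p = 0.0164), with group values of -1.02 on high fat alone, -0.99 with resveratrol and -1.04 with metformin. It rests on 1 to 7 reads a library in high-fat-fed livers and 8 to 28 on ordinary feed, and lost its call without the filter and without the second or the third ordinary-feed library. Gstp3, a glutathione transferase gene with close copies, had the most abundant called feature beside it (NONMMUT033452.2). That feature averaged 446 ± 52.1 FPKM in high-fat-fed livers and 589 ± 60.3 FPKM in ordinary-feed livers (SD, log2 change -0.40, SE 0.12, limma adjusted p = 0.0446). It was not called after median-ratio or quantile scaling, and lost its call on leaving out 13 of the 16 libraries in turn (adjusted p up to 0.139).

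The highest change belonged to an intergenic stretch of chromosome 1, 38.7 kb from the predicted gene Gm47985. NONMMUT003114.2 (chr1:151138185-151143841) ran from 7.2 to 28.8 FPKM with a median of 13.1 FPKM in high-fat-fed livers, and was at 1.60, 2.69, 2.27 and 2.76 FPKM in ordinary-feed livers. Every high-fat-fed mouse was more than 1 log2 unit above every ordinary-feed mouse, with a gap of 1.13. The log2 change was 2.14 (SE 0.28, limma adjusted p = 0.00175), with 2.58 on high fat alone, 1.83 with resveratrol and 2.00 with metformin. The 4 other features of this 18.5 kb stretch had values of 0.71 to 1.26, and 3 of them were called higher, against 2.24% of all features. Overlapping ones share reads.

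Genes of cholesterol handling gave both directions. Stard4 encodes a carrier that moves cholesterol between membranes and is known to respond to SREBP2. Its 3′ UTR feature, NONMMUT031869.2, ran from 12.3 to 29.5 FPKM with a median of 20.1 FPKM in high-fat-fed livers, and was at 7.90, 7.005, 8.07 and 10.4 FPKM in ordinary-feed livers. No values overlapped, and the log2 change was 1.14 (SE 0.17, limma adjusted p = 0.0031), with 1.31 on high fat alone, 0.80 with resveratrol and 1.30 with metformin. Insig2 encodes a protein that holds the SREBP precursors in the endoplasmic reticulum. Its 3′ UTR feature (NONMMUT002394.2) averaged 103 ± 41.8 FPKM in high-fat-fed livers and 193 ± 32.8 FPKM in ordinary-feed livers (SD; log2 change -0.9999, SE 0.28, limma adjusted p = 0.0414), with overlapping ranges. Under 15 of the alternatives, the median-ratio and quantile scalings among them, that feature was not called. Of 7 linked cholesterol features, 1 was called higher, 1 lower and 5 not, with a median of 0.29. Over all features, 2.24% were called higher and 6.72% lower. The feature at Msmo1, a sterol demethylation enzyme, had a change of 0.59 (adjusted p = 0.107).

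In the fat synthesis and storage lists, Dgat2 and Aacs passed the test, both higher, where 2.24% of all features were called higher. Dgat2 encodes the acyltransferase of the last step of triglyceride synthesis. Its 3′ UTR feature (NONMMUT062889.2) ran from 119 to 234 FPKM with a median of 176 FPKM in high-fat-fed livers, and was at 105, 108, 113 and 122 FPKM in ordinary-feed livers. 1 resveratrol mouse lay within the ordinary-feed range and the other 11 high-fat-fed mice above it. The log2 change was 0.69 (SE 0.15, limma adjusted p = 0.0183), but it was not called with the 8 drug-treated libraries alone, without the filter, or without the second or the third ordinary-feed library (adjusted p up to 0.0642). Aacs encodes acetoacetyl-CoA synthetase, which turns a ketone body into a lipid precursor. The feature 4.06 kb downstream of it (NONMMUT149179.1) averaged 2.82 ± 0.55 FPKM on high fat alone, 0.687 ± 1.04 FPKM with resveratrol, 0.655 ± 0.307 FPKM with metformin and 0.111 ± 0.0839 FPKM on ordinary feed (SD). Its pooled change of 0.93 (SE 0.22, limma adjusted p = 0.0264) was therefore carried mainly by high fat alone, and it was not called with the drug-treated libraries alone. No other of the 9 linked features of fatty acid synthesis passed the test. Fasn, the fatty acid synthase gene, had a change of 0.33 (adjusted p = 0.633), Acaca, of acetyl-CoA carboxylase, 0.22 (adjusted p = 0.322), and Scd1, of stearoyl-CoA desaturase, -0.90 (adjusted p = 0.271). The Scd1 feature spread from 230.5 to 2663 FPKM over the high-fat-fed livers and from 1168 to 2476 FPKM over the ordinary-feed ones.

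Lists of fuel use gave lower calls only, among small numbers of linked features, where 6.72% of all features were called lower. In the list of fatty acid oxidation, Cpt1a, the gate enzyme of mitochondrial import, was called lower and the other 8 were not called. Its feature 0.478 kb downstream (NONMMUT033416.2) averaged 7.70 ± 1.71 FPKM in high-fat-fed livers and 12.2 ± 1.17 FPKM in ordinary-feed livers (SD, log2 change -0.63, SE 0.18, limma adjusted p = 0.0451), a call lost after median-ratio scaling and in 16 further alternatives. Ppara, the fasting-activated nuclear receptor, had a value of 0.19 (adjusted p = 0.493). Among 5 features of glucose synthesis, those at Pck1 and the aminotransferase gene Gpt (-0.50, adjusted p = 0.0419) were called lower. The Gpt call was lost in 17 alternatives, among them the median-ratio and quantile scalings, the drug-treated libraries alone and 10 analyses with 1 library left out (adjusted p up to 0.147). Fbp1 (0.40), Foxo1 (-0.08) and Gcgr (-0.02) were not called. Of 7 respiratory chain features 4 were called lower, at Atp5c1 (-0.55), Sdha (-0.43), Atp5l (-0.40) and Sdhc (-0.37), of ATP synthase and succinate dehydrogenase, against 6.72% of all features and 9.52% of intronic ones. None of these 4 was called without the first, the second or the third ordinary-feed library. That list had a median of -0.40. After median-ratio scaling 1 of these 4 was still called, and with the 8 drug-treated libraries none was. Stk11, the kinase that activates AMPK, had an intronic feature that changed by -0.45 (adjusted p = 0.0283). Its call was lost in 7 alternatives, among them the median-ratio and quantile scalings and the drug-treated libraries alone. It was also lost without the first, the second or the third ordinary-feed library (adjusted p up to 0.0847). Sirt1, the deacetylase often linked to resveratrol, had a value of -0.77 (adjusted p = 0.315).

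In the clock list, with 9 linked features, Per3 (0.99, adjusted p = 0.0253) and Tef (0.56, adjusted p = 0.0414) were higher and an intronic feature of Clock (-0.67, adjusted p = 0.0182) was lower. Over all features, 2.24% were called higher and 6.72% lower. Per3 encodes a repressor of the clock, Clock one of its activators and Tef an output factor. The Per3 feature (NONMMUT050749.2) averaged 2.56 ± 0.973 FPKM on high fat alone, 1.21 ± 0.94 FPKM with resveratrol, 2.99 ± 0.342 FPKM with metformin and 0.625 ± 0.658 FPKM on ordinary feed (SD). None of these 3 was called with the drug-treated libraries alone or without the second or the third ordinary-feed library. The labels state no hour of tissue collection, and its part in these values was not tested.

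The Mup genes encode pheromone carriers that liver secretes into urine, and their close copies make reads hard to assign. Of 6 linked features, all intergenic, 2 were called higher, at Mup11 (0.84, adjusted p = 0.0262) and Mup12 (0.87, adjusted p = 0.0261), and the list's median was 0.72. The share called higher was 2.24% of all features and 4.74% of intergenic ones. Both lost their call without the second, the third or the fourth ordinary-feed library. The pseudogene Mup-ps14 (chr4:61608292-61610983) ran from 0.559 to 3.65 FPKM with a median of 1.83 FPKM in high-fat-fed livers, and was at 0, 0.22, 0 and 0.0934 FPKM in ordinary-feed livers. All 12 lay above all 4, with a log2 change of 1.32 (SE 0.22, limma adjusted p = 0.0066). Mup transcription is known to follow growth hormone, whose receptor gene Ghr held 5 tested features with values of 0.51 to 0.98. Of these 2 were called higher, against 2.24% of all features. The intronic one named by rule, NONMMUT022585.2 (chr15:3346563-3347470), averaged 8.22 ± 2.32 FPKM in high-fat-fed livers and 3.67 ± 1.09 FPKM in ordinary-feed livers (SD, log2 change 0.98, SE 0.20, limma adjusted p = 0.0148). It lost its call without the third ordinary-feed library and without the filter.

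At the loci of Foxa2, Hnf4a and Egfr, 7 of 25, 2 of 6 and 1 of 5 features were called higher, against 2.24% of all features tested. Overlapping features at each locus can share reads, so these counts are not of independent measurements. At Hnf4a, the called MSTRG.25288.3 lies within the interval of the other called feature, NONMMUT110083.1. Around Foxa2, a pioneer factor of hepatocyte genes, the 25 features over 104 kb had positive pooled values with a median of 0.75, and 18 were not called. With metformin 20 of the 25 values were positive and 5 negative, the lowest being -0.40 for NONMMUT147093.1, which lies 5.01 kb from Foxa2 and had a pooled value of 0.13 (adjusted p = 0.743). NONMMUT147081.1, 51.1 kb downstream of Foxa2, averaged 9.66 ± 3.54 FPKM in high-fat-fed livers and 4.30 ± 0.704 FPKM in ordinary-feed livers (SD, log2 change 0.95, SE 0.21, limma adjusted p = 0.0185), a call lost without the second or the third ordinary-feed library and with the drug-treated libraries alone. The medians over these features were 1.02 on high fat alone, 0.58 with resveratrol and 0.71 with metformin. Overlapping Hnf4a, the master regulator of hepatocyte identity, MSTRG.25288.3 (chr2:163514694-163519613) ran from 2.31 to 11.4 FPKM with a median of 6.25 FPKM in high-fat-fed livers, and was at 0.593, 1.41, 1.18 and 3.01 FPKM in ordinary-feed livers. The fourth ordinary-feed mouse lay within the high-fat-fed range. It changed by 1.47 (SE 0.28, limma adjusted p = 0.011), while the antisense gene Hnf4aos had a value of 0.26 (adjusted p = 0.553). At Egfr, which encodes a growth factor receptor abundant on hepatocytes, the 5 pooled values were positive, 1 of the 5 was negative with metformin, and 1 was called. The called feature (NONMMUT008655.2) averaged 51.4 ± 33.9 FPKM in high-fat-fed livers and 11.9 ± 4.92 FPKM in ordinary-feed livers (SD, log2 change 1.74, SE 0.48, limma adjusted p = 0.0414), and lost its call in 13 alternatives, among them each in which an ordinary-feed library was left out (adjusted p up to 0.109). These loci were picked out after their values were seen, apart from the features named by rule.

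Of the remaining higher features named by rule, NONMMUT029338.2, 8.86 kb downstream of Stk19, changed by 1.31 (SE 0.28), NONMMUT146801.1, far downstream of Rprm, by 1.27 (SE 0.29), NONMMUT015589.2, on chromosome 12, by 1.11 (SE 0.15), 1810058I24Rik (chr6:35252654-35263496) by 1.00 (SE 0.16), NONMMUT119200.1, across part of 2900026A02Rik, by 0.94 (SE 0.16) and 9030619P08Rik by 0.93 (SE 0.25). Of these 6, NONMMUT015589.2, 1810058I24Rik and NONMMUT119200.1 were called in each alternative analysis that tested them. The Stk19 feature lost its call with the 8 drug-treated libraries alone, without the filter and without the third ordinary-feed library, the Rprm one without the filter and without the second or the third, and 9030619P08Rik on leaving out any 1 of 9 libraries, each of the 4 on ordinary feed among them. NONMMUT141158.1, 1.24 kb upstream of the centriole gene Fbf1, changed by 1.18 (SE 0.34, limma adjusted p = 0.0451), a call lost in 18 alternatives. The 3′ UTR feature of Creb3l2, a factor of the secretory pathway, was chosen after its values were seen. It averaged 6.45 ± 1.39 FPKM in high-fat-fed livers and 3.24 ± 0.377 FPKM in ordinary-feed livers (SD, log2 change 0.79, SE 0.11, limma adjusted p = 0.00223) and was among the 54.

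**Figure D4:**
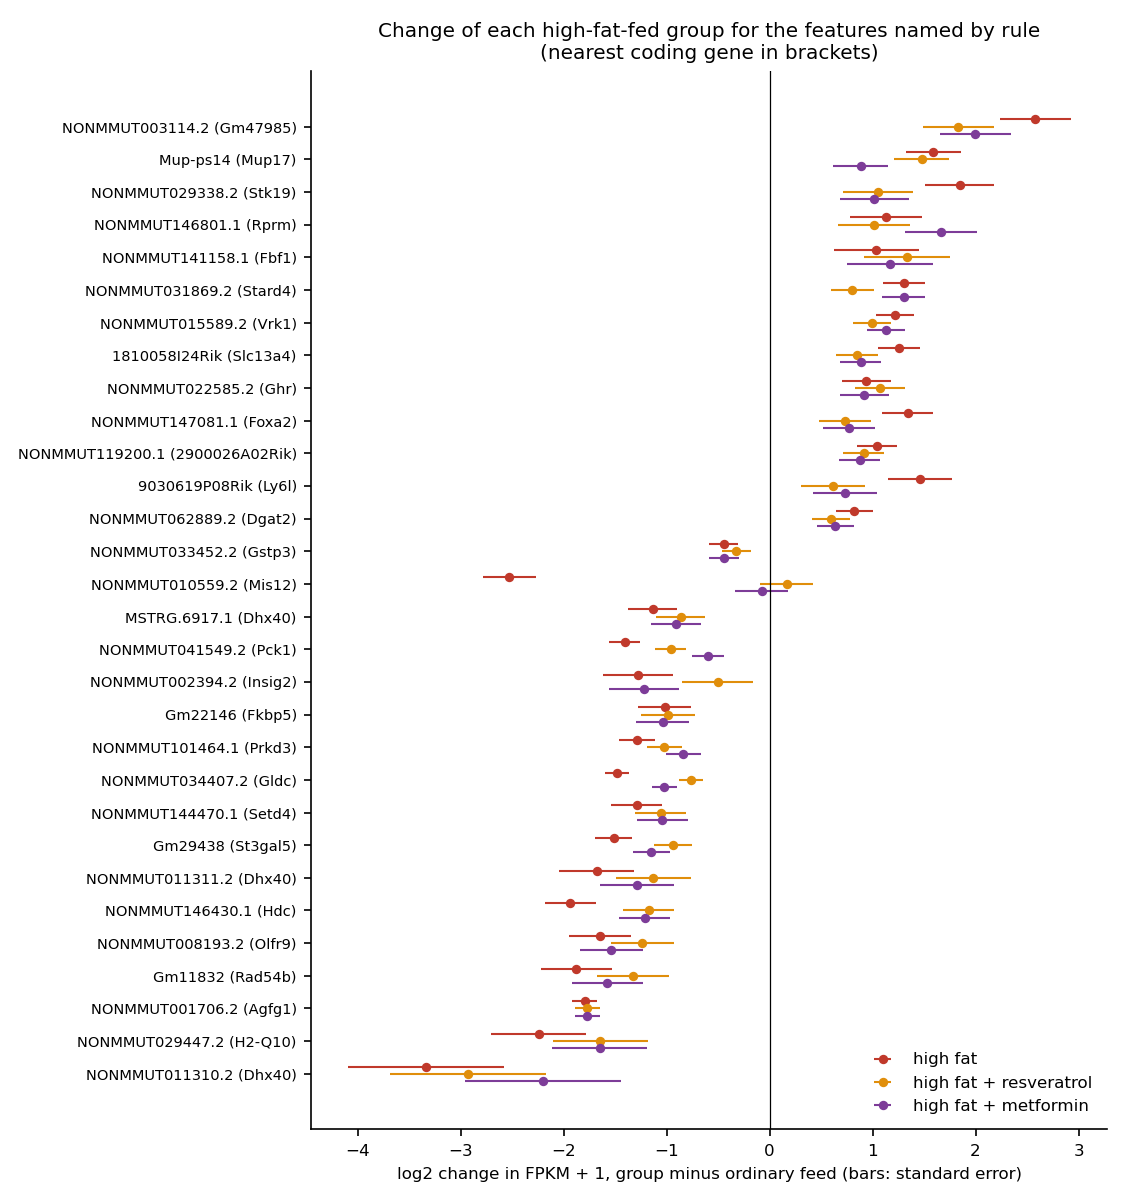
Log2 change in FPKM + 1 of each high-fat-fed group minus ordinary feed (points, with standard errors) for the 30 features named by rule, ordered by the pooled change. The 3 groups, which share the 4 ordinary-feed libraries, lie on the same side of 0 for each feature except NONMMUT010559.2 at Mis12. For the 12 highest and 12 lowest this follows from the rule, which asked for no overlap between the diets.

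Of 493 genes in the lists other than cell markers, 164 linked features were tested, of which 10 (6.1%) were called higher, against 2.24% of all features, and 11 (6.71%) lower, against 6.72%. Together that is 12.8%, against 8.96% of all features, with a median change of -0.04 against -0.10. Members were picked with results known and each feature stands for the gene only by position, so nothing particular to a list is read from these counts. No call was made in the lists of bile acid synthesis (4 linked features), xenobiotic metabolism (7), endoplasmic reticulum stress (8), antioxidant defence (8), acute phase proteins (2) or amino acid metabolism (5). Cyp7a1, the rate-limiting enzyme of bile acid synthesis, had a value of 0.17 (adjusted p = 0.736), and the endoplasmic reticulum stress list had a median of -0.36. Of 30 long non-coding RNAs named in liver work, Gm15441 was lower and Dleu2, a microRNA host gene, was higher (0.46, adjusted p = 0.0442), a call lost in 14 alternatives, among them quantile scaling, the drug-treated libraries alone and 11 analyses with 1 library left out (adjusted p up to 0.13). The other 28, among them Malat1 (0.26, adjusted p = 0.841) and Neat1 (-0.36, adjusted p = 0.719), were not called. In the list of liver transcription factors 1 linked feature, that with the highest mean FPKM, stood for each gene. Among these 17 features Onecut2 (0.55, adjusted p = 0.0483) was the one call, lost in 18 alternatives. The features called higher at Foxa2 and Hnf4a were not those that stood for these genes. Those at Foxa2 lay more than 5 kb away, and those at Hnf4a were multi-part features, which were not linked.

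**Figure D5:**
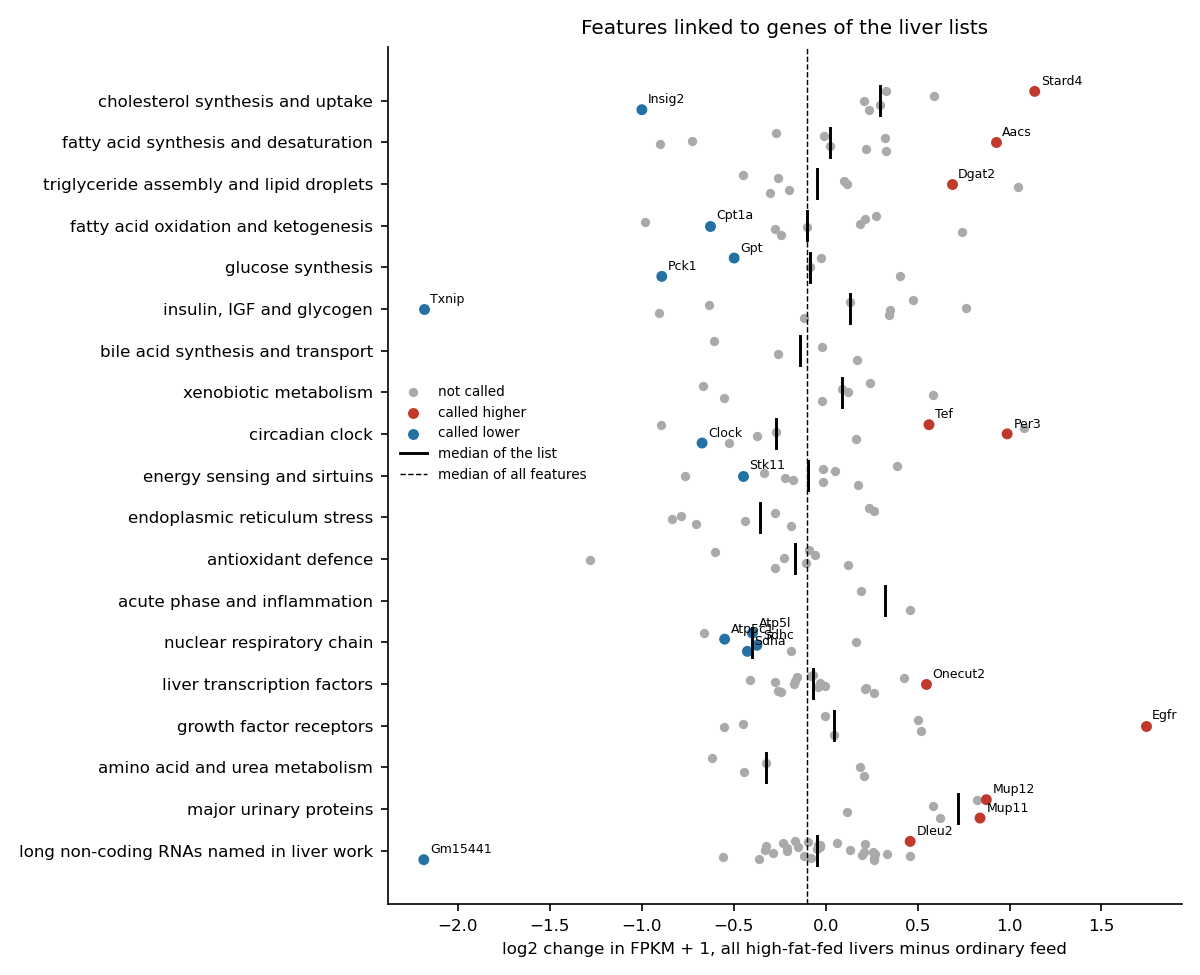
Log2 change in FPKM + 1 (all high-fat-fed livers minus ordinary feed) of the features linked to genes of each list, 1 point a gene, with the called ones coloured and named, the list's median as a bar and the median of all features (-0.10) as a dashed line. Most points are grey, and the called ones lie on both sides of the dashed line.

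Calls were spread unevenly over the genome's annotation. Of 3088 features inside introns of coding genes, 294 (9.52%) were called lower and 28 (0.907%) higher, whereas of 1605 intergenic ones 89 (5.55%) were lower and 76 (4.74%) higher. After median-ratio scaling the intronic counts were 98 lower and 67 higher, and the intergenic ones 37 lower and 113 higher. Runs of intronic features within 1 gene contributed to these counts, as in the transcription factor gene Sox5, where 8 of 11 features, all 8 intronic, were called lower. The 11 include the exonic NONMMUT059401.2 (-0.12, not called). All 11 pooled changes were negative (median -0.52), with 1 positive value in the resveratrol group. The lower median ratio and higher 7SL share of high-fat-fed libraries move with the excess of lower calls, and their part in it was not tested.

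The high-fat-fed groups were also compared with each other, in a test of their means whose residual spread is estimated from all 4 groups. The F test among them called 3 features (0.0405%), and 884 features (11.9%) had an unadjusted p under 0.05. Of the 664 features called for diet, 1 was called by the F test and 212 (31.9%) had an unadjusted p under 0.05. The 1 shared call was the 3′ UTR feature of Mis12, a gene of the kinetochore (NONMMUT010559.2, chr11:71025492-71027369). It was at 0.211, 0.137, 0.163 and 0.121 FPKM on high fat alone, 4.86, 6.20, 8.90 and 6.58 FPKM with resveratrol, 8.40, 5.23, 2.45 and 7.02 FPKM with metformin, and 4.57, 4.67, 6.36 and 7.59 FPKM on ordinary feed. Its pooled change of -0.81 (SE 0.21) therefore reflects the 4 mice on high fat alone, and with the 8 drug-treated libraries the change was 0.04. The pooled call was lost without any 1 of the ordinary-feed libraries and after median-ratio scaling. The other features called by the F test, in introns of Igfbp2, a secreted binder of insulin-like growth factors (NONMMUT001470.2), and of Tacc1 (NONMMUT130078.1), were not called for diet.

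Set against ordinary feed one group at a time, 1085 features (14.6%) were called on high fat alone, 21 (0.283%) with resveratrol and 22 (0.297%) with metformin. These comparisons share the 4 ordinary-feed libraries and use FPKM as deposited. Over all features the median log2 change was -0.16 on high fat alone, -0.04 with resveratrol and -0.09 with metformin. The group on high fat alone also holds the library with a median ratio of 0.691. The part of these shifts in the counts, and in the absolute changes that follow, was not tested. Over the 664 pooled calls the median absolute log2 change was 0.64 on high fat alone, 0.36 with resveratrol and 0.48 with metformin, and over all features it was 0.26, 0.16 and 0.20. Over the 54 features called throughout it was 1.01, 0.77 and 0.79 in the same order. In the same fit, the contrast of the 8 drug-treated livers minus ordinary feed gave 102 calls, 44 higher and 58 lower. Of these, 101 were among the 664. Both contrasts use the drug-treated and ordinary-feed libraries and the same residual spread, so this overlap is largely built in and is no separate result. The drug-treated contrast was added after the data were seen.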

How the data were processed

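Total RNA of 16 mouse livers was sequenced on an Illumina NovaSeq from TruSeq libraries, per the labels' protocols. The FPKM values of 51024 long non-coding transcripts were deposited by the authors; Bowtie 0.12.2, Cufflinks 2.1.1 and the build GRCm38 are named in the submitters' processing notes. The depth, in whole reads, was recovered from the steps between low FPKM values within each library (tolerance 0.05 read); strand was not used. Transcripts of 1 Ensembl gene were summed, giving 49988 features, of which the 7413 with at least 1 FPKM in at least 4 libraries were tested. A feature was placed on the GENCODE M21 annotation and linked to a gene it overlapped or lay within 5 kb of. Multi-part features spanning parts of a coding gene (957 of those tested) were not linked to it. The list counts leave these out. Log2(FPKM + 1) was fitted with limma 3.58.1 (R 4.3.3, intensity trend, 4 group means, 12 residual degrees of freedom); the contrast was the mean of the 3 high-fat-fed groups minus ordinary feed, with Benjamini-Hochberg adjustment over all tested features and calls at an adjusted p under 0.05. An F test compared the high-fat-fed groups, and 6 library measures had two-sided exact permutation tests. A log2 change on this scale understates changes of low features. Each group's replicates are 4 mice, and the labels do not say whether title prefixes mark litters, cages or batches. Members, lists and loci were chosen with earlier results of these data known. The rule for named features took the 12 highest and 12 lowest called features without overlap between diets (1 per 20 kb), the 6 most abundant called ones, those called in both tests, and list members. The fit was tested on simulated data. Alternatives changed the pseudocount, filter, scaling, model and libraries.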

Additional observations from a re-analysis of the deposited data

Results flagged for a closer look

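Of 216 groups of 4 libraries checked for 1 value far from the other 3, 16 were picked out, where chance alone picks about 1 in 20. The second library on high-fat feed alone held 31.1 M reads (M, mega), against 21.9 M to 22.9 M reads in the rest of its group. Among high-fat-fed mice, the Stk19 feature reached 9.90 FPKM in the fourth mouse on high fat alone (others 2.63 to 3.08), the Ghr one 14.3 FPKM in the second resveratrol mouse (others 6.56 to 7.69) and the Foxa2 one 15.3 FPKM in the second metformin mouse (others 5.86 to 7.21). NONMMUT119200.1 was at 2.15 FPKM in the first resveratrol mouse (others 1.37 to 1.43). In the fourth resveratrol mouse, the Aacs feature was at 2.24 FPKM (others 0.097 to 0.214) and the Atp5c1 one at 2.19 FPKM (others 2.67 to 2.76). The Dgat2 feature was at 192.2 FPKM in the first metformin mouse (others 167 to 171) and NONMMUT041547.2 at Pck1 at 0.949 FPKM in the second (others 1.32 to 1.38). The third metformin mouse was high at both Dhx40 features, with 102.6 FPKM for NONMMUT011310.2 (others 6.67 to 11.7) and 2.54 FPKM for MSTRG.6917.1 (others 0.906 to 1.01). On ordinary feed, the fourth mouse was high at Egfr, with 19.3 FPKM (others 9.08 to 10.0), and at Per3, with 1.61 FPKM (others 0.266 to 0.355). The second was high at MSTRG.6917.1, with 4.62 FPKM (others 2.84 to 3.00), and at Gm11832, with 12.9 FPKM (others 4.60 to 5.90). The first was high at Dleu2, with 8.79 FPKM (others 6.31 to 6.58). In addition, 3 features differed among the high-fat-fed groups by limma's F test, at Mis12 (adjusted p = 0.000274), Tacc1 (adjusted p = 0.0146) and Igfbp2 (adjusted p = 0.0245).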

How the results depend on the processing

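Of 2670 recomputed values of 101 named features, 2382 kept their direction and side of the threshold, 270 lost the call, 14 gained one and 4 reversed. Of the 85 called features, 33 lost the call in at least 1 alternative. The 101 include the 54 features called in each of 24 alternatives, which were taken in because they kept their call. These shares therefore do not describe the 664 calls as a whole, of which those 54 were called throughout. Reversed values were -0.0377 for Prkaa2, -0.16 for Tacc1 and 0.0448 for Mis12 with the 8 drug-treated libraries, and -0.0934 for Cyp7a1 without the third ordinary-feed library (up to 0.434 without the first). A pseudocount of 0.1 gave 329 lower calls. No filter gave 98 calls (24 higher, 74 lower), 5 by the F test, 386 features without overlap, and 1 higher and 2 lower list members. A filter of 1 FPKM in 12 libraries gave 6 higher list members. Median-ratio scaling gave 274 higher and 176 lower calls, 8 by the F test and 4 lower list members, and quantile scaling 218 lower calls, 9 by the F test and 5 lower list members. A 2-group fit gave 308 calls (95 higher, 213 lower) and 5 higher and 7 lower list members. Sample weights gave 273 higher calls, 18 by the F test, and 17 higher and 17 lower list members. Median-ratio scaling without the fourth high-fat library gave 349 higher and 225 lower calls, 5 by the F test, and 18 higher and 7 lower list members. The 8 drug-treated libraries gave 102 calls (44 higher, 58 lower) and 3 higher and 2 lower list members. Leaving out 1 library at a time gave 103 to 762 calls, 29 to 223 higher, 70 to 539 lower, 1 to 12 by the F test, 244 to 443 features without overlap, and 1 to 15 higher and 2 to 12 lower list members. The same ranges were 5.82 to 7.87 percentage points for the 7SL share, -1.73 to -0.471 for the ribosomal locus and -589 to -361.8 for features at 1 FPKM or more. Except for what each setting leaves out by construction, the cause was not tested. No paired analysis was possible because replicate numbers follow accession order and pair no mice. Features with few reads, such as Gm22146, are limited by depth.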
